A study of Homo sapiens with 10 samples.

Results

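The NKX2-1 locus, that is the gene that encodes TTF-1 with its surroundings, was examined in chromatin immunoprecipitation and sequencing (ChIP-seq) peak lists of 2 lung adenocarcinoma cell lines, H441 and A549. Members were all called peaks that shared at least 1 bp with positions 35700001 to 36400000 of chromosome 14 (hg18, counted from 1 as are all peak positions here). The 7 called lists held 70 such peaks out of 79601. Of these, 11 were Smad3 peaks of H441 cells given a control siRNA (siControl) and 13 were Smad3 peaks of H441 cells whose TTF-1 was depleted by siRNA (siTTF-1). TTF-1 gave 28 peaks in the H441 library titled 0 h and 18 in the one titled 1.5 h. The 2 Smad4 libraries of H441 (siControl and siTTF-1) and the Smad3 library of A549 cells gave 0 peaks in the window. H441 cells are labelled TTF-1 positive and A549 cells TTF-1 negative. These lists hold no expression values, so neither label nor the depletion was checked. The treatment described for all samples was 1 ng/ml TGF-β3 for 1.5 h, also for the library titled 0 h, and only that title speaks for an untreated state. Each condition had 1 library. No difference between conditions could therefore be set against replicate spread, and the lists give no read depth.

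TTF-1, the product of NKX2-1, is a homeodomain transcription factor. It directs lung and thyroid development, switches on surfactant genes and is used as a marker of lung adenocarcinoma. Like many lineage factors, it is known to bind control regions of its own gene. Smad3 and Smad4 enter the nucleus after TGF-β binds its receptors, and together with partner factors they bind DNA at target genes. An siRNA against TTF-1 acts on the transcript of NKX2-1 and leaves the gene itself in place, so the locus can still be mapped in depleted cells.

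The gene was placed at 36055001 to 36059000, a 4 kb interval rounded to 1 kb, and its exons were not placed because no annotation of hg18 was used here. NKX2-1 is transcribed from the minus strand, so its upstream side has the higher positions. In RefSeq (GRCh38.p14), genes were ordered by position along the chromosome. By that order the non-coding gene SFTA3 and the protein-coding gene MBIP stand on the downstream side. SFTA3 also shares a listed start with NKX2-1, so it is not a separate neighbour. By the same order the antisense gene NKX2-1-AS1, NKX2-8 and PAX9 stand on the upstream side. The order used a single position per gene, so it does not show whether NKX2-1-AS1 overlaps NKX2-1. All 8 neighbouring genes looked for were found in RefSeq on chromosome 14, but peaks were not assigned to them.

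RefSeq lists 2 starts for NKX2-1, 676 bases apart. The 250 bases before each are shown because a Smad3 peak of siControl cells covered the whole gene interval and ran past its upstream edge. Both are written 5′ to 3′ on the minus strand, and capitals mark every match on either strand to the 7 motifs searched. For the NKX2-1 type these were CAAG, the longer form CACTTG, whose other strand contains it, and the longer form CTCAAG. For the Smad type they were GTCT, its extended reverse form CAGACA, and the palindrome GGCGCC. The AP-1 motif was TGACTCA. Matches of different motifs may share bases.
NKX2-1 outer start, GRCh38.p14 chr14:36520233-36520482: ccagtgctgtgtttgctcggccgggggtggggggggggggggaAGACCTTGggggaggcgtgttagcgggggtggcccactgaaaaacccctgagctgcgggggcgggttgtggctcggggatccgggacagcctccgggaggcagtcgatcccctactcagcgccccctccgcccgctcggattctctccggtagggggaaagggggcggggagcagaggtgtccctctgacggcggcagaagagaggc
NKX2-1 inner start, GRCh38.p14 chr14:36519557-36519806: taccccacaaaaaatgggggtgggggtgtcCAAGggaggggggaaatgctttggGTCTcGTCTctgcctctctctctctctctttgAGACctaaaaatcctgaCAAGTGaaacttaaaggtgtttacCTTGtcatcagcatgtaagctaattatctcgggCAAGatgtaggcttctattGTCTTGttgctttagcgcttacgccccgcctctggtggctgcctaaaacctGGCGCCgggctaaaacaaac
These are positions of another build and cannot be set beside those of the peaks. The window before the outer start held 1 match to CAAG and 1 to GTCT, side by side and both on the opposite strand. The window before the inner start, which RefSeq also lists for SFTA3, held 5 matches to CAAG, 4 to GTCT, 1 to CACTTG and 1 to GGCGCC. The longer form CTCAAG had 0 matches in both, as had CAGACA for Smad and the AP-1 motif, TGACTCA. Of 34943 RefSeq windows of the same length, 80.9% held CAAG, 77.5% held GTCT, 9.51% held CACTTG and 16.4% held GGCGCC. The motifs with no match were found in few of these windows, CTCAAG in 10.4%, CAGACA in 13.6% and TGACTCA in 4.22%. The outer window had 70.8% G and C bases and the inner window 49.6%, against a median of 58% over all windows.

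Smad3 lay over the gene as the longest stretch of peaks in its list. The peak over NKX2-1 in siControl cells ran from 36054751 to 36061449. It was 6699 bp wide, the widest of all 8941 Smad3 siControl peaks, where the median width was 599 bp. It covered 100% of the gene interval and extended 2.45 kb beyond its upstream edge. Its peak number was 2073, where numbers run from 1 to the length of each list and what orders them is not stated by the labels.

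On the downstream side the siControl peaks followed one another almost without a break. A 3949 bp peak (36050751 to 36054699, number 2351) lay 0.302 kb from the gene interval. A 5499 bp peak (36045201 to 36050699, number 1936) came next. By width these ranked 6 and 5 in the list. A 1149 bp peak (36043351 to 36044499, number 2769) and a 1649 bp peak (36041501 to 36043149, number 2386) followed farther out. On the upstream side there was a single separate peak of 899 bp, at 36062301 to 36063199 (number 7710), 3.3 kb from the gene interval.

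When gaps of up to 1 kb were joined, a step chosen after the values were seen, these 6 peaks formed a run from 36041501 to 36063199. It was 21.7 kb long and 91.5% of its bases lay inside a peak. It was the longest of 8394 runs of the siControl list, and the next longest (37124551 to 37137049 on chromosome 14) measured 12.5 kb. With only gaps up to 500 bp joined, the longest run at the gene measured 16.2 kb and still ranked 1 in the list.

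**Figure D1:**
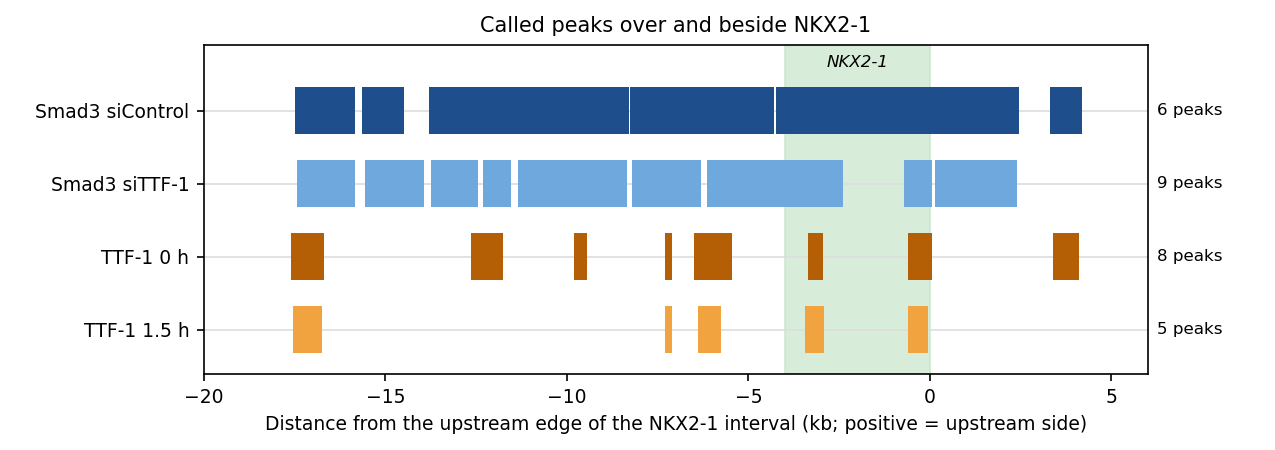
Called peaks (bars) of 4 H441 lists beside NKX2-1, plotted by distance in kb from the upstream edge of the gene interval, which is shaded; positive values lie on the upstream side. The 6 Smad3 siControl peaks leave few gaps, the 9 siTTF-1 peaks leave a gap inside the gene, and the 8 and 5 TTF-1 peaks are narrow and separate.

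Smad3 was called over most of the same run after TTF-1 depletion, in more and shorter pieces. The siTTF-1 list had 9 peaks in the run, and 77.8% of its bases were inside them. Over the gene interval itself the covered part was 57.5%, against 100% in siControl cells. The widest siTTF-1 peak at the gene ran from 36052851 to 36056599 (3749 bp, number 2744) and ranked 6 by width among 14145 peaks. It took in the downstream end of the gene interval. A 749 bp peak at 36058301 to 36059049 (number 7519) lay at its upstream end, and a 2249 bp peak at 36059151 to 36061399 (number 12625) just beyond it.

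The other 6 siTTF-1 peaks of the run lay downstream. They stood at 36050801 to 36052699 (1899 bp, number 1958), 36047651 to 36050649 (2999 bp, number 9375) and 36046701 to 36047449 (749 bp, number 6520). Beyond these came 36045251 to 36046549 (1299 bp, number 12983), 36043451 to 36045049 (1599 bp, number 4721) and 36041551 to 36043149 (1599 bp, number 6625). Joined over gaps up to 1 kb, the 7 peaks from 36041551 to 36056599 made a run of 15.05 kb. It was also the longest of its list, among 13184 runs, and the next longest, at the same place on chromosome 14 as in siControl cells, measured 12.4 kb.

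Several single peaks of the siControl list were thus called in pieces after siTTF-1. The siControl peak over the gene and the 5499 bp peak each met 3 siTTF-1 peaks. In the whole siControl list 3 peaks met 3 or more siTTF-1 peaks, so 2 of these 3 were here. Of the 56 siControl peaks that met 2 or more (0.626% of the list), 4 were in the locus. Most peaks of the list were narrow, and only 59 siControl peaks were 2 kb or wider. Of these 59, 4 were in the locus and 14 met 2 or more siTTF-1 peaks. Joining was also seen, but its frequency in the whole list was not counted. The 3749 bp siTTF-1 peak met 2 siControl peaks, so it counts as a piece of both. The siControl runs ranked 2, 3, 4 and 5 by length held 6, 4, 3 and 7 peaks. At the same places the siTTF-1 runs held 4, 1, 2 and 7.

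**Figure D2:**
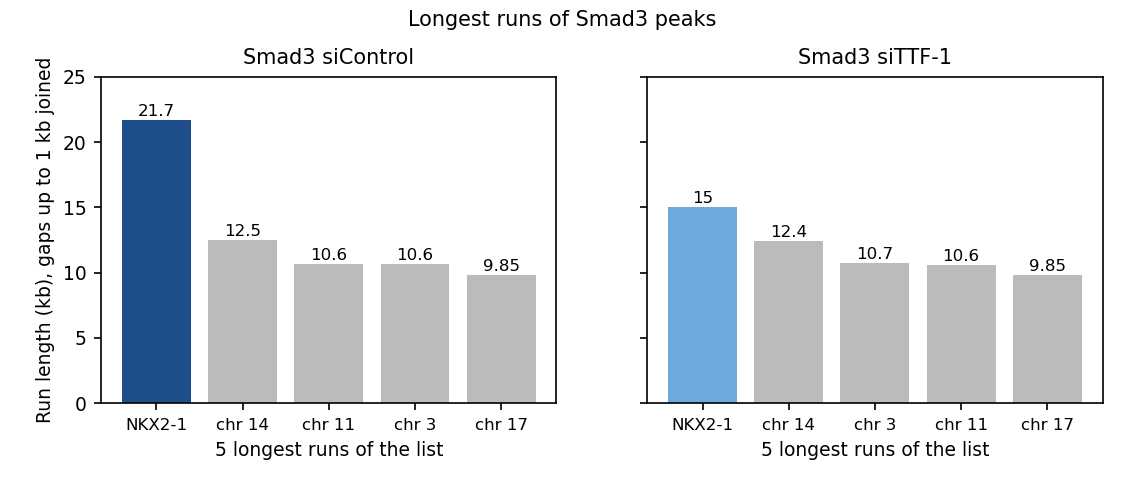
Length in kb of the 5 longest runs of Smad3 peaks in siControl (left) and siTTF-1 (right) H441 cells, with gaps up to 1 kb joined. The run at NKX2-1 (coloured) is the longest in both lists, 21.7 kb and 15.05 kb, and the grey bars are the next 4, named by chromosome.

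Within the run, the largest stretch that was inside a siControl peak and outside every siTTF-1 peak lay in the gene. It ran from 36056600 to 36058300 (1701 bp) and held 0 bases of a TTF-1 peak at either time. The next was the upstream peak of 899 bp at 36062301, of which 699 bases lay in a TTF-1 0 h peak and 0 in a 1.5 h peak. The other 10 stretches of the run were 50 to 201 bp long. Among them, 36052700 to 36052850 (151 bp) and 36041501 to 36041550 (50 bp) lay wholly inside TTF-1 peaks at both times. The stretch 36046550 to 36046700 (151 bp) lay wholly inside a 0 h peak and had 0 bases in a 1.5 h peak. Another, 36059050 to 36059150 (101 bp), lay just outside the upstream edge of the gene interval.

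By peak, 7 of the 11 siControl Smad3 peaks of the locus were kept, that is they overlapped a siTTF-1 peak, and 4 were lost (63.6%, exact binomial 95% interval 30.8 to 89.1), against 80.8% of the whole list. The interval holds the whole-list share, so no difference was detectable with 11 peaks under this rule. The share was also 63.6% with at least 50% of the peak covered, with edges within 500 bp and with lists shortened to 8941 peak numbers. The whole list then gave 79.1%, 81.8% and 67.1%. With peaks within 500 bp merged it was 57.1% (18.4 to 90.1; 81.2% of the whole list). In the gene interval plus 200 kb it was 85.7% (42.1 to 99.6). These intervals too hold the whole-list shares. With centres within 200 bp as the rule the kept share was 18.2% (2.28 to 51.8), against 74.7% of the whole list, and that interval lies below the whole-list share. However, the kept peaks that failed this rule still had 67.2% to 94.9% of their bases inside siTTF-1 peaks. A wide peak called in pieces or with a moved edge fails it, so this share does not measure lost coverage. Intervals here cover counting error only, and neighbouring peaks are not independent. By bases, 82.1% of the siControl bases in the run were inside a siTTF-1 peak, and 76.7% of those of the whole list. With only the first 8941 peak numbers of the siTTF-1 list, as many as in the siControl list, the shares were 49.1% in the run and 66.7% in the whole list. The longest siTTF-1 run at the gene was then 5.8 kb and ranked 10, because the 15.05 kb run lost its peaks with numbers 9375 and 12983. The peak with number 12625, outside that run, also dropped out. Whether the run kept more or less of its Smad3 coverage than the whole list thus turned with the length of the siTTF-1 list.

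**Figure D3:**
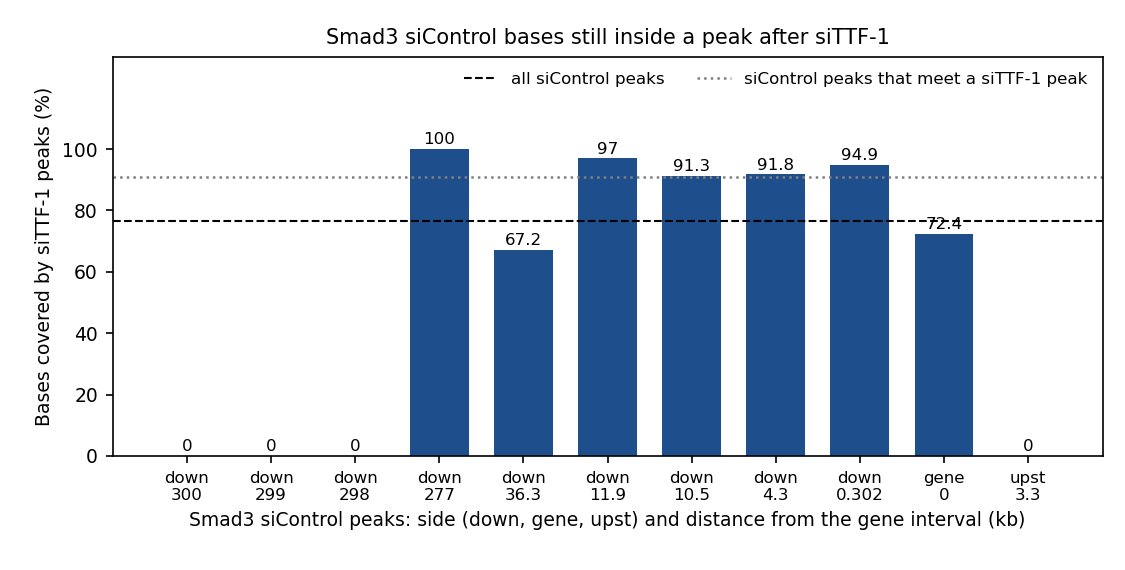
Share of the bases of each of the 11 Smad3 siControl peaks that lay inside a siTTF-1 peak (bars, in percent), ordered along the chromosome and labelled by side and distance in kb from the gene interval. The 4 peaks at 0 are the lost ones, the peak over the gene stands at 72.4%, and the lines mark 76.7% for all siControl peaks and 90.8% for those that met a siTTF-1 peak.

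The 4 lost peaks lay at 2 places. Besides the upstream peak, 3 formed a cluster about 0.3 Mb downstream, at 35754251 to 35755149 (899 bp, number 2646), 35755651 to 35756199 (0.549 kb, number 6555) and 35756351 to 35757149 (799 bp, number 5688). All 3 overlapped TTF-1 peaks at 0 h and 1.5 h, and TTF-1 covered 100% of their bases at 1.5 h. This did not set them apart. Of all siControl peaks 87.7% overlapped TTF-1 at 0 h and 82.2% at 1.5 h. The kept siControl peaks outside the run had 649 of 649 and 2749 of 2749 bases covered at 1.5 h. The TTF-1 peaks at the lost cluster were wide. At 0 h they were 35755451 to 35757399 (1949 bp, the widest 0 h peak of the locus, number 1688) and 35753651 to 35755099 (1449 bp, number 4221). At 1.5 h they were 35755601 to 35757349 (1749 bp, number 3413) and 35753601 to 35755149 (1549 bp, number 7972). No Smad3 siTTF-1 peak of the locus lay between these positions, and the nearest was the kept site at 35777701.

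Kept sites outside the run were 2. One was at 35777701 to 35778349 in siControl cells (649 bp, number 6249) and at 35777701 to 35778399 after siTTF-1 (699 bp, number 7608). The other, 36.3 kb downstream of the gene interval, was a siControl peak of 2749 bp (36016001 to 36018749), which ranked 17 by width. With number 1168 it was the foremost siControl peak of the locus. After siTTF-1 it was called as 36016151 to 36017299 (1149 bp, number 4111) and 36017601 to 36018299 (699 bp, number 2979), which together held 67.2% of its bases. TTF-1 at 0 h was called as a pair at the same place (36015851 to 36017349, 1499 bp, number 3248, and 36017551 to 36018999, 1449 bp, number 2340). At 1.5 h it was a single peak of 3199 bp (36015901 to 36019099, number 2807), which ranked 7 by width among 21291 peaks. One siTTF-1 peak was gained, that is it met no siControl peak: 36006451 to 36006699 (249 bp, number 13709), with no TTF-1 peak. Gained peaks were 1 of the 13 siTTF-1 peaks of the locus (7.69%, 0.195 to 36.03), against 49.1% of the whole list. That share rests on the overlap rule: 12 of the 13 peaks overlapped 7 siControl peaks, and with centres within 200 bp as the rule 84.6% of the 13 counted as gained. With both Smad3 lists held to 8941 peak numbers 0 of 9 were gained (0%, 0 to 33.6; 33.5% of the whole list), and with peaks within 500 bp merged 1 of 5 (20%, 0.505 to 71.6; 48.6% of the whole list). Both intervals hold the whole-list share.

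TTF-1 was called at 2 sites over its own gene, both far narrower than the Smad3 peak there, and, just downstream, at a site near the head of its list. Over the gene interval, a 0 h peak at 36058401 to 36059049 (0.649 kb, number 13875) stood at the upstream end, where the gene starts, with a 1.5 h peak at 36058401 to 36058949 (0.549 kb, number 16494). The second site was at 36055651 to 36056049 at 0 h (0.399 kb, number 28538) and at 36055551 to 36056099 at 1.5 h (0.549 kb, number 20258). Both of the latter stood late in their lists, at 91.8% and 95.1% of the list length. By width the 0.649 kb peak ranked 10779 of 31083, against 1 for the Smad3 siControl peak over the gene in its own list.

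The foremost TTF-1 peak of the locus lay 1.45 kb downstream of the gene interval, at 36052501 to 36053549 at 0 h (1049 bp). Its number, 985, was at 3.17% of the list. At 1.5 h it was called at 36052601 to 36053249 (649 bp, number 1899), at 8.92% of the list. In siControl cells it lay inside the 3949 bp Smad3 peak. After siTTF-1 it spanned the 151 bp gap between 2 Smad3 peaks. A 199 bp peak beside it, 36051701 to 36051899, had the same borders at both times (numbers 24652 and 21009).

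Farther out in the run, 36041401 to 36042299 at 0 h (899 bp, number 8417) and 36041451 to 36042249 at 1.5 h (799 bp, number 10460) marked its downstream end. The TTF-1 peaks of the run that were called at 0 h alone numbered 3. They were 36046351 to 36047249 (899 bp, number 29760), 36049201 to 36049549 (349 bp, number 28591) and 36062401 to 36063099 (699 bp, number 12154). The last of them lay inside the lost upstream Smad3 peak, so at that place neither TTF-1 at 1.5 h nor Smad3 after siTTF-1 was called.

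Within the run, Smad3 spread well past the TTF-1 peaks. TTF-1 0 h peaks covered 25.4% of the Smad3 siControl bases in the run and TTF-1 1.5 h peaks 13.6%. In the whole siControl list these shares were 80.5% and 76.2%, and for the 5 siControl peaks of the locus outside the run they were 95.6% and 100%. Low TTF-1 cover was not particular to this run. Of its whole length, gaps included, TTF-1 0 h peaks covered 23.2%. For the siControl runs ranked 2, 3, 4 and 5 by length this share was 10.8%, 38.9%, 41.3% and 29.9%. Counted by peak with an overlap of at least 1 bp, no difference from the whole list was detectable. TTF-1 1.5 h was present at 8 of the 11 siControl peaks (72.7%, 39.03 to 93.98; 82.2% of the whole list) and TTF-1 0 h at 10 (90.9%, 58.7 to 99.8; 87.7% of the whole list). At 1.5 h this turned with the overlap rule. The 0 h share was not recomputed under other rules, but it would also fall if at least 50% had to be covered. TTF-1 0 h peaks held 1048 bases of the 6699 bp siControl peak and 1248 of the 5499 bp peak. They held 1248 of the 3949 bp peak and 799 of the 1649 bp peak. When at least 50% of a siControl peak had to be covered, the TTF-1 1.5 h share was 45.5% (16.7 to 76.6; 80.01% of the whole list), and with centres within 200 bp it was 27.3% (6.02 to 60.97; 72.8% of the whole list). The peak without TTF-1 at either time was the 1149 bp peak at 36043351. After siTTF-1, 10 of the 13 Smad3 peaks lay at a TTF-1 0 h site (76.9%, 46.2 to 94.96; 62.5% of the whole list). The 3 without were the gained peak, the 1599 bp peak at 36043451 and the 2249 bp peak at 36059151.

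**Figure D4:**
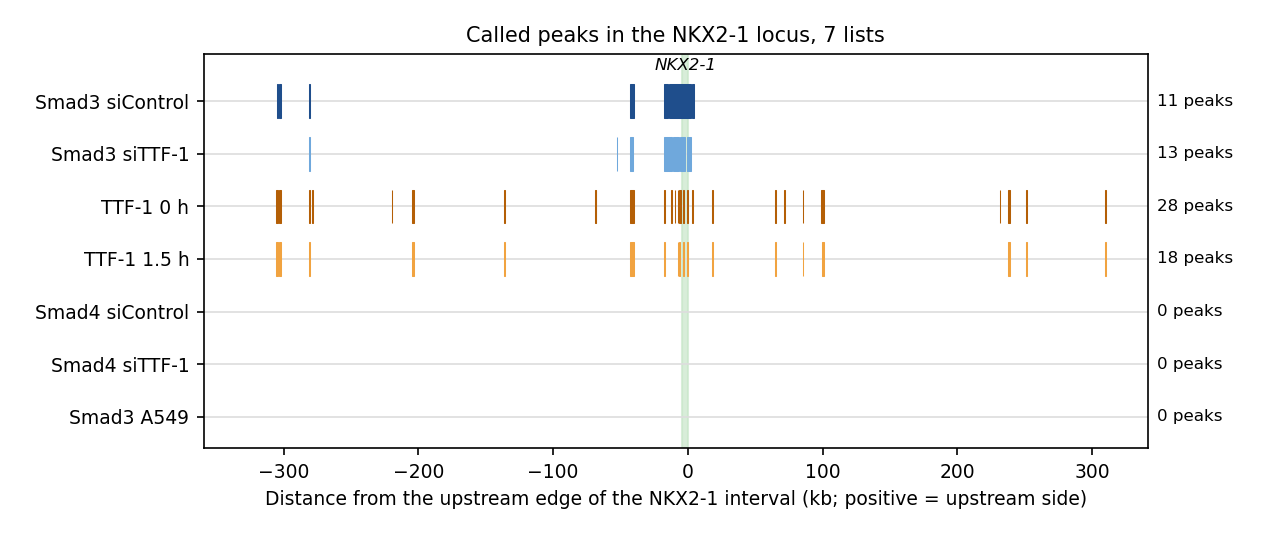
Called peaks (bars) of the 7 lists over the whole locus, by distance in kb from the upstream edge of the NKX2-1 interval (shaded), with the number of peaks at the right. TTF-1 peaks lie on both sides of the gene, Smad3 peaks of both conditions end within 5 kb of its upstream edge, and the Smad4 and A549 rows are empty.

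Called Smad3 peaks of the locus lay mostly downstream of the gene. In siControl cells 9 were downstream, 1 over the gene and 1 upstream, and after siTTF-1 10, 2 and 1. Of the 28 TTF-1 0 h peaks, 16 lay downstream, 2 over the gene and 10 upstream. A Smad3 siControl peak overlapped 10 of the 16, both gene sites and 1 of the 10 upstream. Over the locus that made 13 of 28 (46.4%, 27.5 to 66.1), against 25.1% of the whole TTF-1 0 h list. That share lies below the interval, but several of the 13 met the same Smad3 peak, and 8 of them lay in the run. A Smad3 peak of siTTF-1 cells overlapped 8, 2 and 0 of them, 10 of 28 in all (35.7%, 18.6 to 55.9), against 28.5% of the whole list. At 1.5 h, siControl Smad3 overlapped 7 of 9 TTF-1 peaks downstream, both gene sites and 0 of 7 upstream, 9 of 18 in all (50%, 26.02 to 73.98; 34.3% of the whole list). The last base inside any Smad3 peak of the locus was 36063199 in siControl cells and 36061399 after siTTF-1. The difference between the sides was not tested, since peaks of 1 library are not replicates. The upstream count, 1 of 10, is also small to set beside the 25.1% of the whole list.

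Upstream TTF-1 sites without Smad3 were not confined to the end of the list. The foremost was 36158101 to 36159699 at 0 h (1599 bp, number 2896) and 36158151 to 36159649 at 1.5 h (1499 bp, number 2623), 99.1 kb from the gene interval. The upstream 0 h peaks 36309751 to 36310799 (number 3226) and 36123801 to 36124449 (number 3779) were also in the first of 5 equal strata of the list. In that stratum 56.3% of all TTF-1 0 h peaks had a Smad3 siControl peak, as did 5 of the 10 such peaks of the locus, all of them downstream. Downstream peaks of that stratum could lack Smad3 too, namely 35922301 to 35923499 (number 3989) and 35854201 to 35855599 (number 4175). The upstream site nearest to the run, 36076901 to 36077549 at 0 h (649 bp, number 15795) and 36076851 to 36077549 at 1.5 h (699 bp, number 16576), was also free of Smad3.

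TTF-1 calls of the locus at the 2 times followed the pattern of the whole lists. Of the 28 peaks at 0 h, 19 were called again at 1.5 h (67.9%, 47.6 to 84.1), against 65.3% of the whole list. All 18 peaks at 1.5 h had a 0 h peak (100%, 81.5 to 100), against 95.8%. The 10 peaks of the first stratum were all called again, as were 3 of 4 in the second and 4 of 5 in the third. In the fourth stratum 1 of 5 was called again and in the last 1 of 4. Over the whole list these shares were 99.97%, 96.5%, 74.1%, 39.4% and 16.7%. The 9 peaks called only at 0 h had widths of 349 to 899 bp and a median number of 24025, and the 19 called at both times had a median width of 1049 bp and a median number of 4221.

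**Figure D5:**
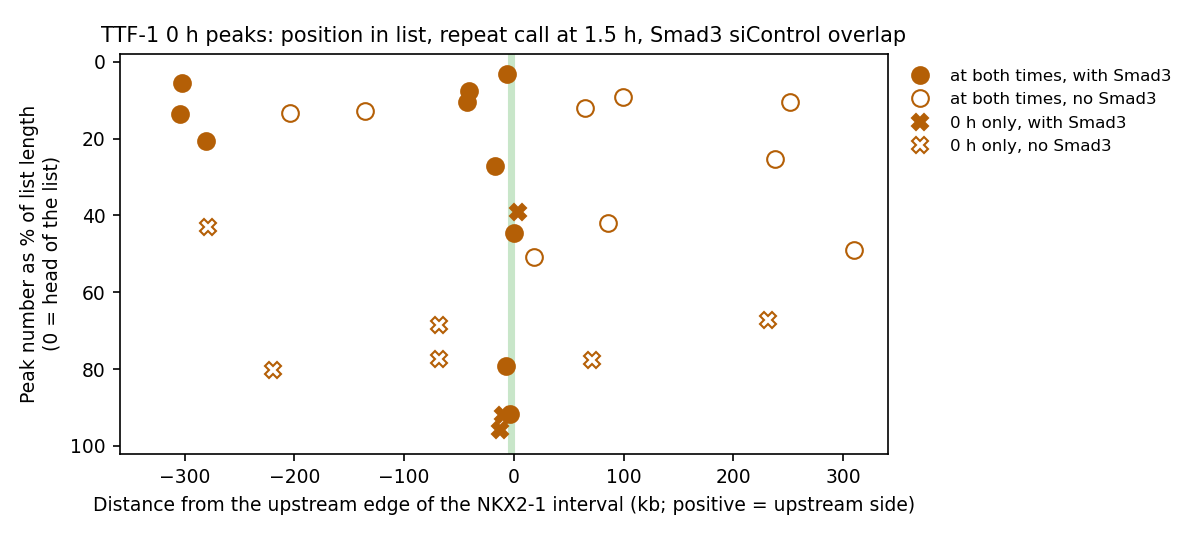
The 28 TTF-1 0 h peaks of the locus by distance in kb from the upstream edge of the NKX2-1 interval (shaded) and by peak number as a percentage of list length, with the head of the list at the top. Filled symbols overlap a Smad3 siControl peak and crosses were called only at 0 h; the 1 filled symbol on the upstream side is the cross at 39.1%.

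The locus was rich in Smad3 against other windows of 0.7 Mb. The genome was divided into 4339 such windows. With 25489 covered bases the locus ranked 1 by Smad3 siControl bases, ahead of 23331 in the next, while with 11 peaks it ranked 56 by their number. After siTTF-1 it ranked 7 by bases (19687) and 111 by number. For TTF-1 the ranks by bases were 13 at 0 h (23572 bases) and 18 at 1.5 h (17832 bases), and those by number 45 and 96. Its Smad3 peaks were both many and wide. There were 15.7 siControl peaks per Mb in the locus and 2.95 over the whole list, and 18.6 against 4.67 after siTTF-1. The median width was 1.149 kb in siControl cells and 1.299 kb after siTTF-1, against 0.599 kb and 0.549 kb in the whole lists. TTF-1 peaks had medians of 0.674 kb at 0 h and 0.749 kb at 1.5 h, against 0.549 kb and 0.599 kb.

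Neither Smad4 nor A549 Smad3 was called anywhere in the locus. A window of 0.7 Mb with a peak was the exception in these short lists: 25.9% of windows held a peak of Smad4 after siTTF-1 and 28.5% one of A549. Among the 79 windows with at least 11 Smad3 siControl peaks, however, 13 had no Smad4 after siTTF-1, 17 had no A549 peak and 6, the locus among them, had neither. Of the 13 Smad3 siTTF-1 peaks 0 met a Smad4 peak of the same condition (0%, 0 to 24.7; 9.06% of the whole list). A549 peaks met 0 of these 13 (0%, 0 to 24.7; 10.3% of the whole list) and 0 of the 11 siControl peaks (0%, 0 to 28.5; 11.9% of the whole list). The intervals hold the whole-list shares, so no difference was detectable with so few peaks. The nearest Smad4 siTTF-1 peak lay 2.66 Mb downstream (33398401 to 33398649) and the nearest A549 peak 1.91 Mb downstream (34140051 to 34140299). The second longest siControl run also had 0 Smad4 and 0 A549 peaks, while the runs ranked 3 and 4 had both. The Smad4 siControl list holds 1 peak in all, on another chromosome, and so describes nothing here. Smad4 was called at a false discovery rate limit of 10% and A549 Smad3 at 5%, against 1% for the 4 other lists. A window without a called peak in these lists does not show that binding was absent.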

How the data were processed

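ChIP-seq peak lists of 7 libraries were used, 1 per condition, with samples grouped by their titles. The 3 input libraries and the 3 lists derived by overlap were not analysed here. Per the labels, peaks were called at a false discovery rate limit of 1% (Smad3 and TTF-1 in H441), 5% (A549) or 10% (Smad4). Per the submitters' processing notes, reads were placed on hg18. No source used here names the aligner or the peak caller. The deposited score was 1000 for every peak and was not used. Starts lie on steps of 50 bp, and 1 track line was skipped.

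Overlap meant at least 1 bp, and shares have exact Clopper-Pearson 95% intervals. No test between conditions was run, since there are no replicates. The window and gene interval were given for this work and rounded, and the locus, the lists of motifs and neighbours and the measures were chosen with earlier results of these data known. All peaks within 25 kb of the gene and all lost or gained peaks were named, and of the others the 3 widest and the 3 with the lowest numbers per list. Runs, shares of bases and the look for Smad4 and A549 peaks in windows rich in Smad3 siControl peaks were added after seeing the values. The alternatives were other overlap rules, merged peaks, another window, a wider gene interval and shortened lists. Promoter sequences are from RefSeq (GRCh38.p14). Python 3.11.15, SciPy 1.17.1 and matplotlib 3.10.9 were used, and overlaps, coverage and merging were tested on simulated data against bedtools 2.31.1.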

Additional observations from a re-analysis of the deposited data

How the results depend on the processing

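Of 96 values recomputed under the other settings, 71 stayed within the interval of a share or within 1.5 times a count or width, and 25 did not. With centres within 200 bp, the kept share of siControl Smad3 peaks was 18.2%, the gained share of siTTF-1 peaks 84.6% and the TTF-1 1.5 h share of siControl peaks 27.3%. The whole lists then gave 74.7%, 52.8% and 72.8%. A wide peak can fail this centre rule even where most of its bases are covered. With lists shortened to 8941 by peak number, the gained share was 0% and the share of TTF-1 0 h peaks called again 84.6%, against 33.5% and 83.9% in the whole lists. TTF-1 peaks of the locus then numbered 13 at 0 h (9 downstream, 0 at the gene, 4 upstream) and 10 at 1.5 h (0 at the gene, 3 upstream), and siTTF-1 Smad3 had 0 upstream. A window of the gene interval plus 200 kb held 7 siControl Smad3 peaks, 5 of them downstream, and 6 and 4 upstream TTF-1 peaks at 0 h and 1.5 h. Merging peaks within 500 bp left 7 siControl peaks (5 downstream) and 5 siTTF-1 peaks (3 downstream, 0 upstream), and the peak over the gene then measured 16249 bp and 15049 bp. With 5 kb added to each side of the gene interval the widest TTF-1 0 h peak was 1049 bp. Of the alternatives added later, joining gaps up to 2 kb gave runs of 21699 bp and 19849 bp, the longest of both lists. No paired analysis was possible because each condition has 1 library and the result comes from no test.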
